A study of Mus musculus with 5 samples.

Results

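The 6 genes described here are tied to bone formation, mineral deposition and Wnt signalling, and were followed in mouse bone marrow mesenchymal stem cells (MSC). They are Mgp, Sparc, Tmem119, Msx2, Rspo2 and Ccn4, the last also known as Wisp1. Every probe set annotated to these 6 genes was taken, which gave 8 of the 3373 probe sets of the deposited table, or 6 of the 2190 genes that it names. Mgp, Tmem119, Msx2 and Rspo2 have 1 probe set each, and Sparc and Ccn4 have 2 each. The genes were chosen for their difference between co-cultured MSC and MSC alone on these same arrays, so their differences are given as descriptions, with standard errors and without tests.

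Co-cultured MSC were grown for 48 h in a transwell chamber with T cells that had been activated through CD3 and CD28, with 10 T cells for each MSC (2 arrays, biological replicates 1 and 2). They were compared with MSC cultured alone (3 arrays, biological replicates 1, 2 and 3). Both groups were primary cultures of MSC purified from mouse bone marrow and grown in Mesencult medium; the labels used here name no mouse strain, age, sex or genotype, and do not say whether a replicate came from 1 animal or a pool. The treatment text is the same for all 5 arrays, so the culture time of MSC alone is not given apart. The membrane keeps T cells and MSC apart while soluble products pass.

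MSC are stromal cells that can become osteoblasts, the cells that lay down bone matrix and let it mineralise. Osteoblast formation is driven by BMP and Wnt signals: a secreted Wnt protein binds Frizzled and LRP receptors, β-catenin is spared from degradation, and TCF/LEF factors then switch on target genes. Secreted matrix proteins in turn bind collagen and calcium and set where mineral forms. MSC from marrow are also known for restraining T cells, and the comparison addresses how soluble products of activated T cells change the expression of MSC.

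Expression was read on Affymetrix arrays as RMA values on the log2 scale, so that a difference of 1 is a 2-fold difference in hybridisation signal. The median of the table was 7.50 and 7.42 on the 2 co-culture arrays and lay between 7.61 and 7.64 on the 3 arrays of MSC alone. In 3373 of 3373 probe sets, or 100%, the groups did not overlap, and the largest adjusted p in limma over the table was 0.0271, so the deposited table is a selection of probe sets that differ and passing the threshold marks out no gene within it. Genes called measured below are those named in this selection, so a gene not analysed may have been left out by it. Of 15 markers of MSC and stroma 5 were measured, with a mean level of 9.47 and 9.31 on the co-culture arrays against 9.40 to 9.48 on the arrays of MSC alone; Pdgfra and Vcam1 were higher in co-culture and Pdgfrb, Cxcl12 and Cd44 lower, while Thy1, Eng, Nt5e and Ly6a were not analysed here, so the cell type on the label could not be checked against them. Of 14 macrophage and osteoclast markers 2 were measured, Mpeg1 and Ctss, and their mean level was 8.025 and 7.35 on the co-culture arrays against 3.74 to 4.24 on those of MSC alone. No detection call exists to say whether the low values are signal or background, and the part of such cells in the results below was not tested. The 14 T cell and 7 endothelial markers were not analysed here.

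The RefSeq promoter table held 2 of the 6 genes, Sparc and Msx2, which differed in opposite directions. The 250 bases before each start site (build GRCm38.p6, 5′ to 3′ on the minus strand, at chr11:55420081-55420330 for Sparc and chr13:53472781-53473030 for Msx2) are printed to show how unlike these promoters are in base make-up, with CpG dinucleotides in capitals.
Sparc: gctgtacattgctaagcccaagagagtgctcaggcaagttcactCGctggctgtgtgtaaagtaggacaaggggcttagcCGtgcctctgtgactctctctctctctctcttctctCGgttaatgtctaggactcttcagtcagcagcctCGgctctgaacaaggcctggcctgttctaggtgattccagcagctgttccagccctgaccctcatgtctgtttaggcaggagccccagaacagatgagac
Msx2: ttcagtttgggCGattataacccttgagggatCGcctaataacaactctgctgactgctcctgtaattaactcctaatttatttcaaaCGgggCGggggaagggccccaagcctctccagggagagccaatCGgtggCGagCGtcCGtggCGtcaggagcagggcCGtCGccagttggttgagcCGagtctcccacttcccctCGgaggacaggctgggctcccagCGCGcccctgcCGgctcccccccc
The Sparc stretch holds 4 CpG and is 54% G or C, and 62.2% of all promoters in the table hold at least as many CpG. The Msx2 stretch holds 16 CpG and is 61.6% G or C, and 25.4% of promoters hold as many. Within the full window of 300 bases, which runs on into the transcribed part, 3 motifs were searched on both strands: ACCACA, the core bound by RUNX factors; CTTTGA, the core bound by TCF/LEF factors; and CAATTA, a homeodomain core. These are found in 16.8%, 16% and 8% of the 32851 promoter windows. The only match to these 3 was 1 ACCACA in Sparc, which begins 36 bases into the transcribed part. Other forms of the homeodomain core were not searched.

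Of the 6 genes 5, with 7 of the 8 probe sets, were lower in co-cultured MSC on both arrays than on every array of MSC alone, and 1, Msx2, was higher. Over all probe sets of the table, 51.3% were lower in co-culture and 48.7% higher at an adjusted p below 0.05 in limma; the genes were chosen on this contrast, so nothing is read from that count. All 7 lower probe sets differed by at least 2-fold, as did 35.3% of the table in that direction. In bulk RNA, less RNA per cell and fewer cells that express a gene cannot be told apart.

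**Figure D1:**
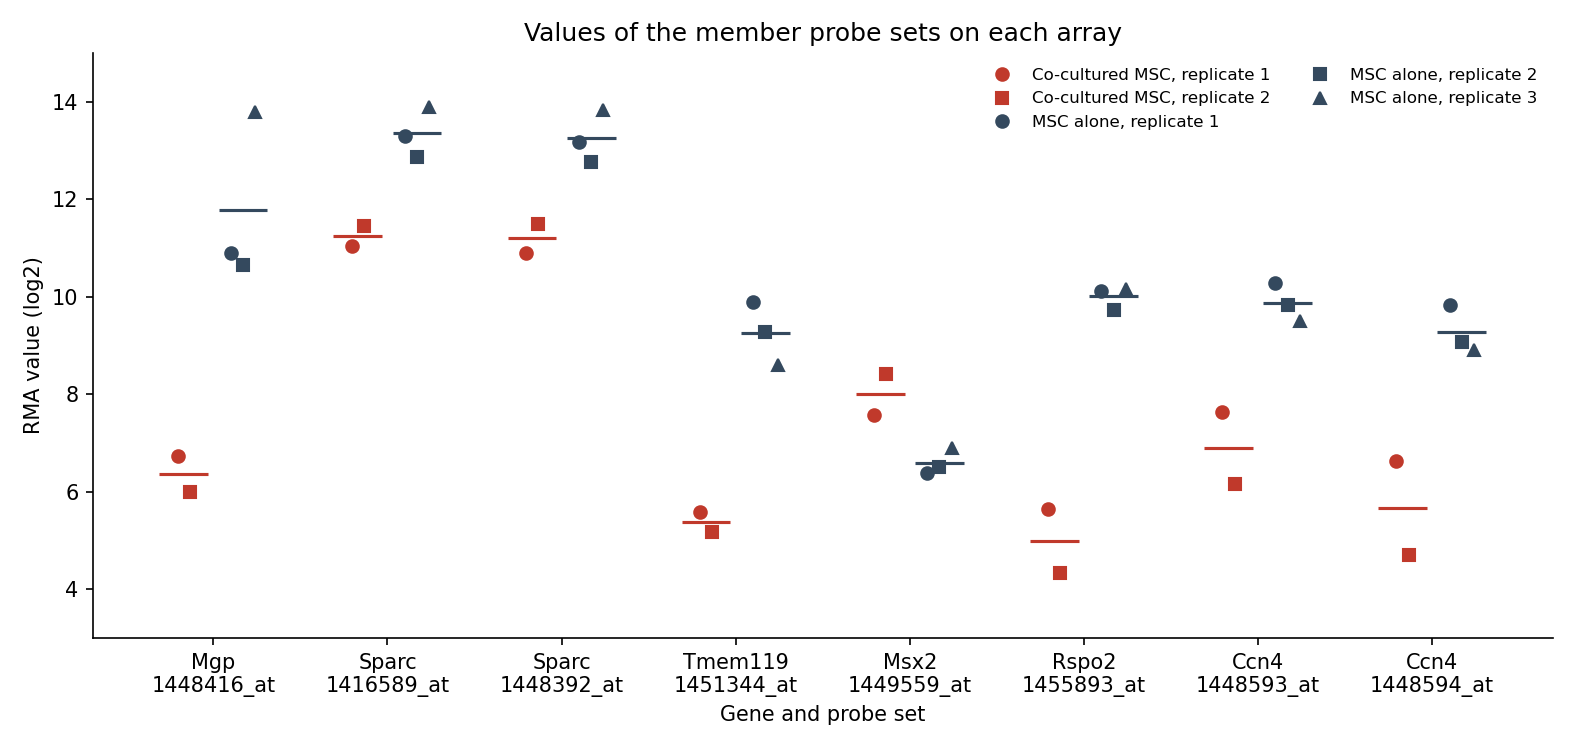
RMA values (log2, y axis) of the 8 probe sets of the 6 genes (x axis) on each array. Points are arrays, co-cultured MSC left of MSC alone, and lines are group means. Msx2 is the only gene whose co-culture arrays lie above those of MSC alone, and Mgp in MSC alone replicate 3, at 13.79, stands far above the other 2 arrays of its group.

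Among the matrix proteins that govern mineral, Mgp encodes matrix Gla protein, a small vitamin K-dependent protein that keeps cartilage and arteries from calcifying. Its probe set 1448416_at read 6.74 and 6.001 in co-culture replicates 1 and 2, against 10.90, 10.66 and 13.79 in MSC alone replicates 1, 2 and 3. The groups were 3.92 apart at their nearest arrays, and MSC alone replicate 3 was by far the highest value. The mean was 6.37 ± 0.52 in co-culture (SD, n = 2) and 11.78 ± 1.74 in MSC alone (SD, n = 3), a difference of -5.42 ± 0.94 (SE), or 42.7-fold lower. That difference ranked 6 of 3373 counted from the most negative. Its size leaned on 1 array: without MSC alone replicate 3 it was -4.41, or 21.3-fold lower.

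Sparc encodes osteonectin, a secreted protein that binds collagen and calcium and is abundant in bone matrix. Probe set 1416589_at read 11.04 and 11.46 in co-culture replicates 1 and 2, against 13.30, 12.87 and 13.90 in MSC alone. The second probe set, 1448392_at, read 10.89 and 11.50 in co-culture, against 13.17, 12.77 and 13.84 in MSC alone. Both put the arrays in the same order, with MSC alone replicate 3 highest and co-culture replicate 1 lowest, and the groups did not overlap. The means of the first were 11.25 ± 0.29 in co-culture (SD, n = 2) and 13.36 ± 0.52 in MSC alone (SD, n = 3). The differences were -2.11 ± 0.33 and -2.06 ± 0.36 (SE), or 4.31-fold and 4.17-fold lower, with a gap of 0.05 between them. Sparc had the smallest difference of the 5 lower genes and ranked 241 and 255 from the most negative.

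Tmem119 (probe set 1451344_at) encodes a membrane protein of a single pass that promotes osteoblast differentiation in mice and also marks microglia. It read 5.59 and 5.17 in co-culture, against 9.89, 9.28 and 8.60 in MSC alone. The groups were 3.01 apart at their nearest arrays, and here MSC alone replicate 3 was the lowest of its group. The mean was 5.38 ± 0.30 in co-culture (SD, n = 2) and 9.26 ± 0.64 in MSC alone (SD, n = 3), a difference of -3.87 ± 0.39 (SE), or 14.7-fold lower, which ranked 27 from the most negative. Leaving out each array in turn kept the difference between -4.20 and -3.56.

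Msx2, a homeobox transcription factor gene that responds to BMP and is needed for skull growth, was the exception. Probe set 1449559_at read 7.58 and 8.43 in co-culture, against 6.39, 6.51 and 6.90 in MSC alone. The nearest arrays, co-culture replicate 1 and MSC alone replicate 3, were 0.69 apart, the smallest separation of the 8 probe sets. The mean was 8.004 ± 0.60 in co-culture (SD, n = 2) and 6.60 ± 0.26 in MSC alone (SD, n = 3), a difference of 1.41 ± 0.31 (SE), or 2.65-fold higher, which ranked 514 from the most positive. It was 1.83 without co-culture replicate 1 and 0.98 without co-culture replicate 2.

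Of the Wnt-linked genes, Rspo2 (probe set 1455893_at) encodes R-spondin 2, a secreted protein that binds LGR receptors and takes the ubiquitin ligases RNF43 and ZNRF3 off the cell surface, which leaves more Frizzled there to bind Wnt. It read 5.65 and 4.33 in co-culture, against 10.13, 9.74 and 10.17 in MSC alone. The 3 arrays of MSC alone lay within 0.43 of each other, the narrowest range of the 8 probe sets, while the co-culture arrays were 1.31 apart. The mean was 4.99 ± 0.93 in co-culture (SD, n = 2) and 10.01 ± 0.24 in MSC alone (SD, n = 3), a difference of -5.02 ± 0.40 (SE), or 32.5-fold lower, ranked 14 from the most negative. The 2 co-culture arrays gave different sizes: 51.2-fold lower without replicate 1 and 20.6-fold lower without replicate 2. Co-culture replicate 2 lay under 4.88, the 10th percentile of the table, and with such values raised to that level the difference was -4.75.

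Ccn4 encodes a matricellular protein, first found as a gene induced by Wnt1 in mouse mammary cells, that is also made during bone formation. Probe set 1448593_at read 7.63 and 6.15 in co-culture, against 10.29, 9.84 and 9.50 in MSC alone. The second, 1448594_at, read 6.64 and 4.70 in co-culture, against 9.84, 9.08 and 8.91 in MSC alone. Both ordered the 5 arrays alike, from co-culture replicate 2, the lowest, to MSC alone replicate 1, the highest, and the groups did not overlap in either. The means of the first were 6.89 ± 1.04 in co-culture (SD, n = 2) and 9.88 ± 0.40 in MSC alone (SD, n = 3), and those of the second 5.67 ± 1.37 in co-culture and 9.27 ± 0.49 in MSC alone. The differences were -2.99 ± 0.47 and -3.61 ± 0.59 (SE), or 7.92-fold and 12.2-fold lower, and lay 0.62 apart. Both probe sets were read on the same arrays, so neither SE measures that gap. Without co-culture replicate 1 the first probe set was 13.2-fold and the second 23.9-fold lower, and without replicate 2 they were 4.75-fold and 6.22-fold lower. The value of the second probe set in co-culture replicate 2 lay under the 10th percentile of the table, 4.88, so its folds are uncertain; with such values raised to that level its difference over all arrays was -3.52.

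**Figure D2:**
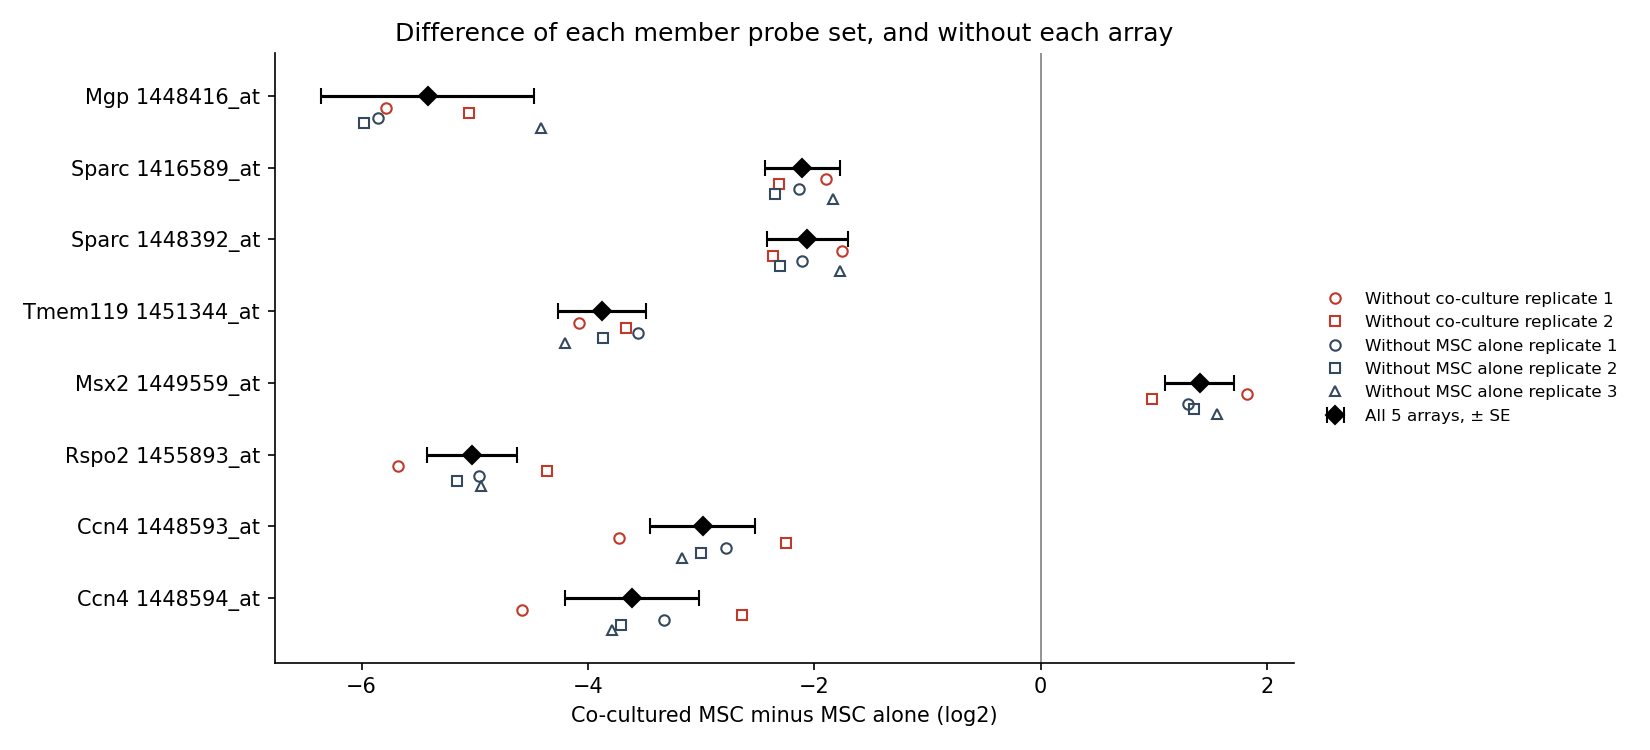
Difference of each probe set (x axis, log2, co-cultured MSC minus MSC alone): black diamonds are all 5 arrays with the moderated SE, and open symbols leave out 1 array each. All values for Msx2 lie above 0 and all others below it; Mgp moves most without MSC alone replicate 3 (-4.41), and Rspo2 and Ccn4 move most without a co-culture array.

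In size, Mgp and Rspo2 differed most, then Tmem119 and Ccn4, then Sparc, with Msx2 on the other side of 0. Mgp at -5.42 ± 0.94 and Rspo2 at -5.02 ± 0.40 (SE) lay within 1 SE of each other. Tmem119 at -3.87 ± 0.39 lay within 1 SE of the second Ccn4 probe set at -3.61 ± 0.59, but not of the first, which stands for the gene, at -2.99 ± 0.47 (SE). All were read on the same arrays, so the SE is only a scale for these gaps and not a test of them. Of the 7 lower probe sets 5 read lower in co-culture replicate 2 than in replicate 1, and both Sparc probe sets read higher there; over the whole table, 1341 of 1731 lower probe sets, or 77.5%, read lower in replicate 2.

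The genes did not share an order among the arrays of MSC alone, a pattern that the choice of genes did not use. Replicate 3 was the highest of the 3 in 5 probe sets, those of Mgp, Sparc, Msx2 and Rspo2, and the lowest in the other 3, those of Tmem119 and Ccn4. In Mgp it stood 3.01 above the mean of replicates 1 and 2, in Sparc 0.81 and 0.87, in Msx2 0.45 and in Rspo2 0.24. For Tmem119 it stood at -0.98 relative to that mean, and for Ccn4 at -0.56 and -0.55. Replicate 3 therefore lay nearest the co-culture arrays in Tmem119, Ccn4 and Msx2 and farthest from them in Mgp, Sparc and Rspo2. Replicate 3 was an extreme of its group in 8 of 8 member probe sets and in 76.7% of the table. With 3 arrays this is a description of single cultures.

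**Figure D3:**
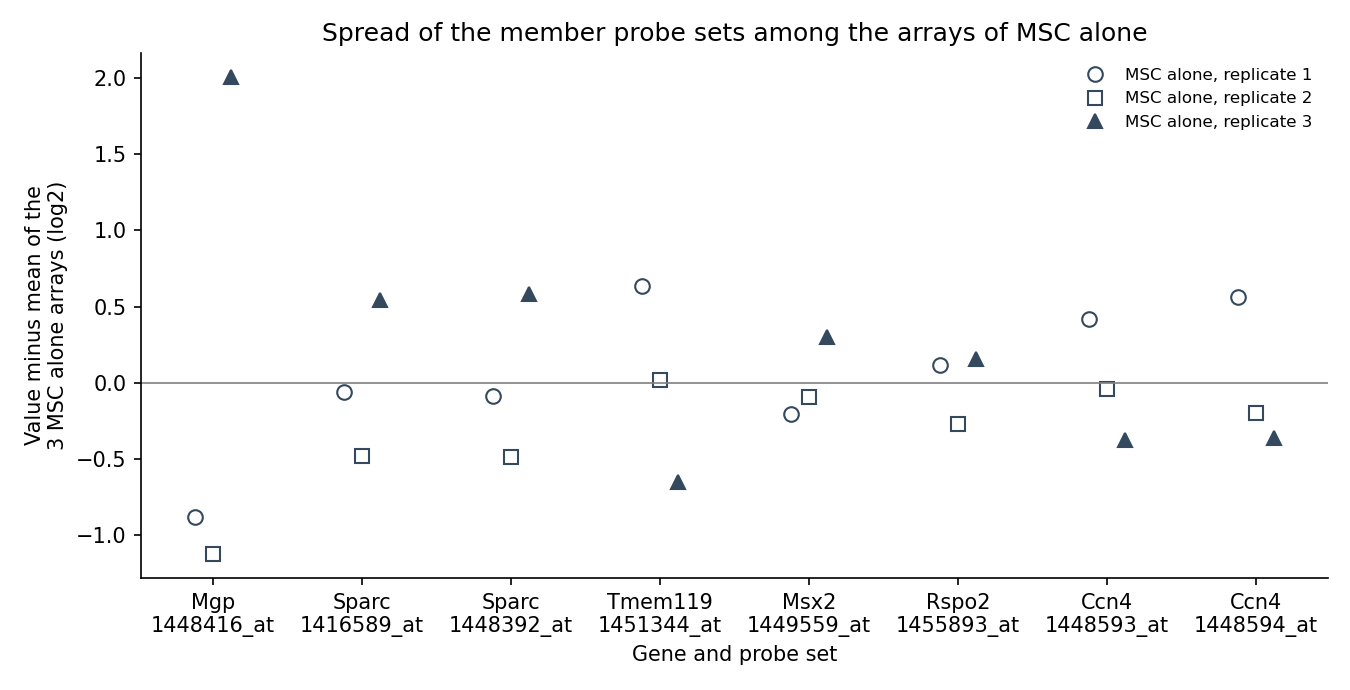
Value of each probe set on the 3 arrays of MSC alone minus their mean (y axis, log2) for the 8 probe sets (x axis). Replicate 3, the filled triangles, is highest for Mgp, Sparc, Msx2 and Rspo2 and lowest for Tmem119 and Ccn4, and its largest offset is in Mgp.

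The profile over all 5 arrays was used to find the genes most like each of the 6, by the root mean square difference (RMS) between log2 values centred on each gene's own mean. Such likeness mixes the contrast with the order inside the groups. Mgp was nearest to Ndnf (RMS 0.30) and Thbs2 (RMS 0.48), which share its high value in MSC alone replicate 3. Ndnf in co-culture replicates 1 and 2, at 4.16 and 4.24, and Thbs2 in co-culture replicate 2, at 4.23, lay under the 10th percentile of the table. Sparc was nearest to Igfbp7 (RMS 0.09), a secreted insulin-like growth factor binding protein gene, and to Uhrf1 (RMS 0.14), a DNA methylation maintenance gene. For Tmem119 the nearest were Gas1 (RMS 0.37), a membrane protein gene of growth-arrested cells, and the collagen gene Col1a1 (RMS 0.42). For Rspo2 they were the collagen genes Col3a1 (RMS 0.34) and Col11a1 (RMS 0.45). Ccn4 was nearest to Ank3 (RMS 0.19), an ankyrin gene, and Adamts5 (RMS 0.20), an aggrecan-cleaving proteinase gene. Nearness used only the brightest probe set of each gene. Ank3 differed by -2.68 on that probe set but by -1.78 averaged over its probe sets, and Adamts5 by -2.69 and -2.75. Msx2 was nearest to Rbl1 (RMS 0.08), which encodes the retinoblastoma relative p107, and Il13ra1 (RMS 0.10), an interleukin-13 receptor chain gene. Among the 6 themselves the closest pair was Tmem119 and Ccn4 (RMS 0.57) and the next Tmem119 and Rspo2 (RMS 0.77), while Mgp and Sparc, both genes of mineral-binding matrix proteins, were 1.85 apart.

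Other genes of the same pathways were taken from 9 lists. Besides the 6 genes these lists named 207, of which 31 were measured and 176 were not analysed here. The counts that follow cover only genes in the table, which was selected for probe sets that differ. At an adjusted p below 0.05 in limma over the whole table, a threshold that every gene passes, 25 of the 31 fell and 6 rose. The median difference of the 31 was -1.31. Over all 2190 genes 51.7% fell and 48.3% rose, with a median of -0.61. The lists overlap, and they were drawn up with earlier results of these arrays known.

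**Figure D4:**
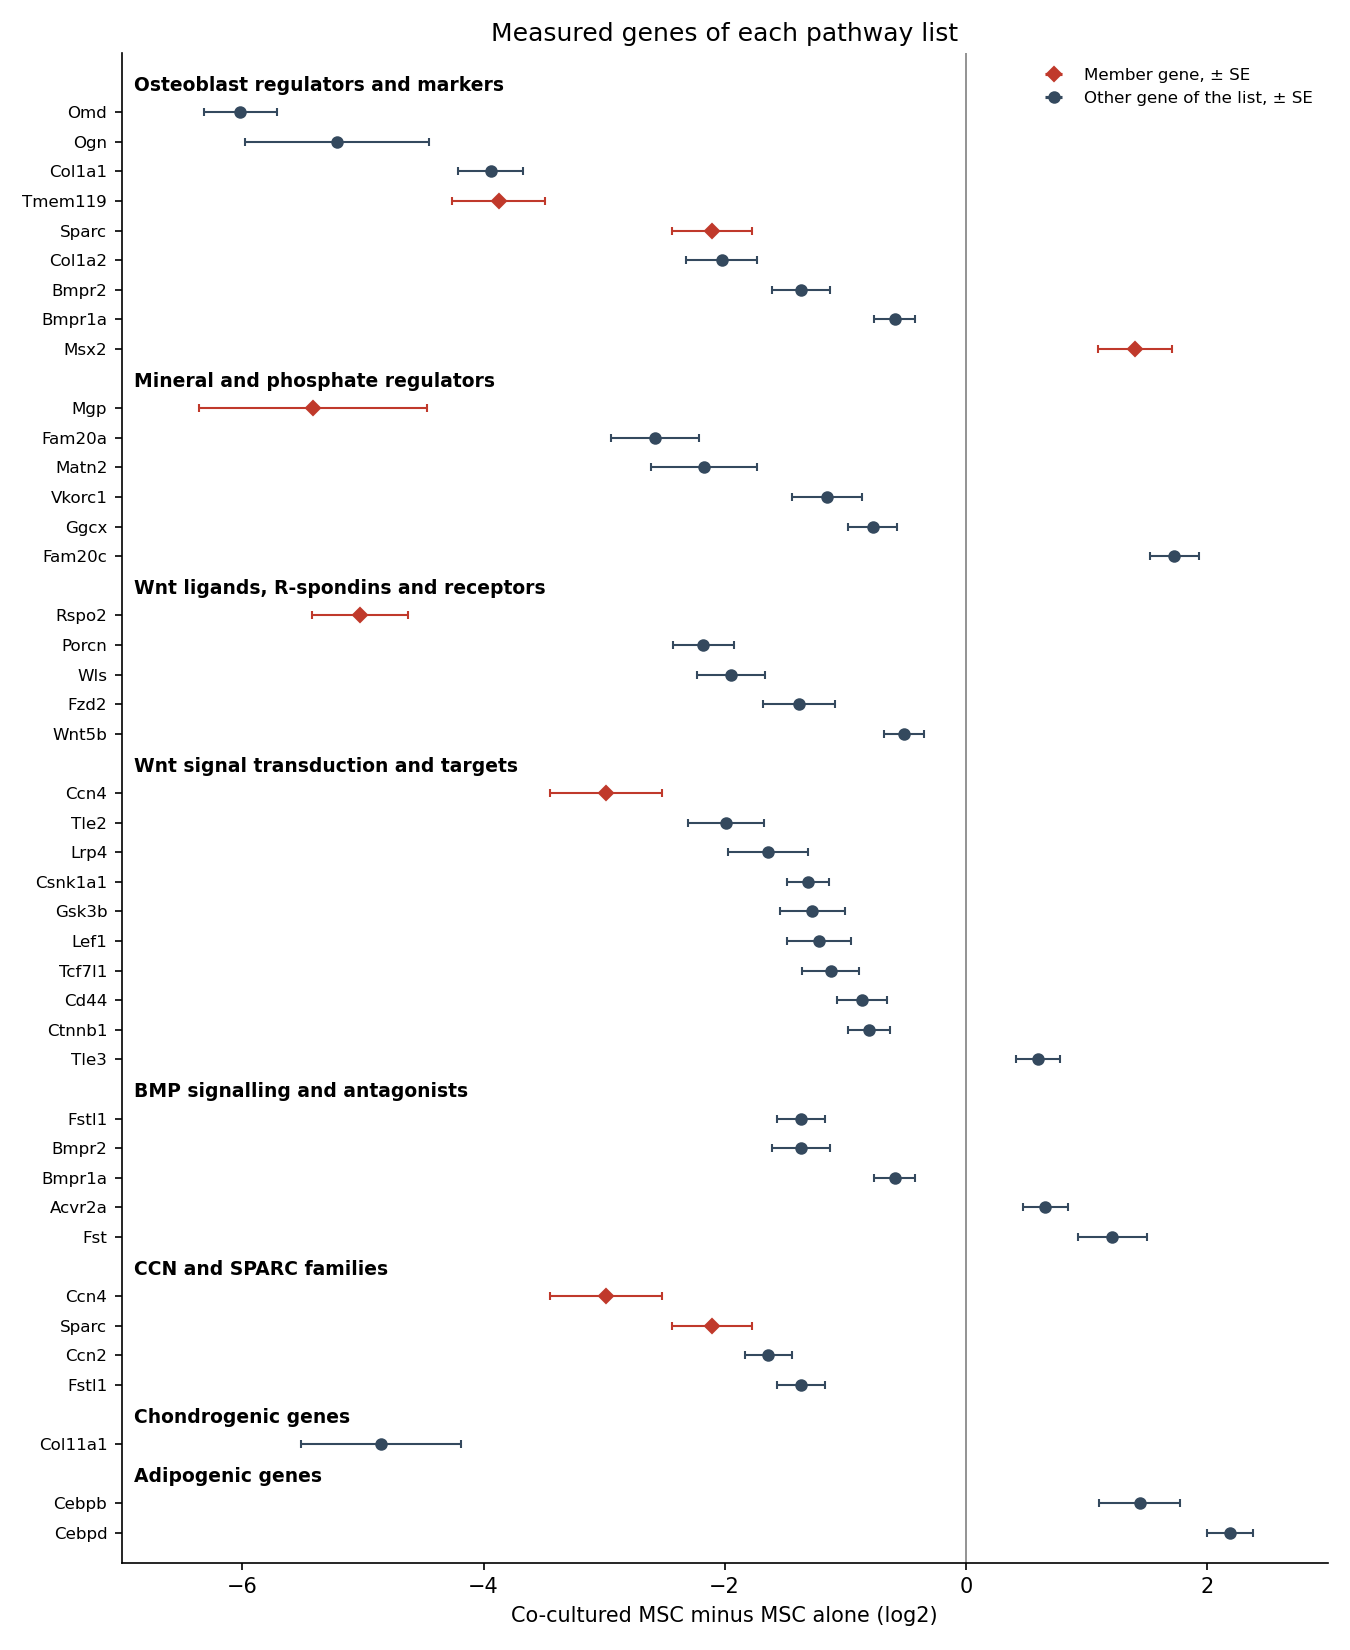
Difference of each measured gene of the pathway lists (x axis, log2, co-cultured MSC minus MSC alone, ± moderated SE), grouped by list; red diamonds are the 6 genes of interest. All 5 measured Wnt ligand, R-spondin and receptor genes lie below 0, and Msx2, Fam20c, Tle3, Acvr2a, Fst, Cebpb and Cebpd lie above it.

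Of 41 osteoblast regulators and markers 9 were measured, 8 of them lower in co-culture and 1, Msx2, higher. The median was -2.11, the difference of Sparc itself, and 3 of the 9 genes were chosen on this contrast. The median was -3.60 with each gene's probe sets averaged and -2.99 without the dimmest 25% of probe sets. Leaving out Msx2, Sparc and Tmem119, all 6 others fell, among them Bmpr1a, whose call was lost with arrays centred on their medians and without MSC alone replicate 2; 7 genes of the list were then lower. Omd and Ogn, which encode the matrix proteoglycans osteomodulin and osteoglycin, differed by -6.02 ± 0.31 and -5.21 ± 0.76, and Col1a1 fell by 3.94 ± 0.27 (SE), with -5.13 in its other probe set. Both co-culture values of Omd, 4.79 and 4.53, lay under the 10th percentile of the table, and with such values raised to it the difference was -5.80. Without co-culture replicate 1 the difference of Ogn was -6.65, and without replicate 2 it was -3.78. The master regulators Runx2 and Sp7 and the late markers Alpl, Bglap and Ibsp were not analysed here, so the list does not cover the stages of osteoblast maturation.

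Like Mgp and 51.7% of all genes, the genes for enzymes that make matrix Gla protein active were lower. Ggcx, which carboxylates its glutamates, read 4.48 and 4.29 in co-culture, against 4.93, 5.17 and 5.37 in MSC alone, a difference of -0.77 ± 0.21 (SE; adjusted p 0.0103 in limma). Vkorc1, which recycles the vitamin K this needs, read 9.86 and 9.29 in co-culture, against 10.38, 10.69 and 11.10 in MSC alone, and fell by 1.15 ± 0.29 (SE; adjusted p 0.00896 in limma). Both were named after their values were seen. Ggcx was low on all 5 arrays, and with values under the 10th percentile raised to it the adjusted p in limma was 0.159, the highest of 11 alternatives, which reached down to 0.00753.

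Of the 21 mineral and phosphate regulators 6 were measured; 5 were lower, Mgp among them, and 1 higher, with a median of -1.66. Fam20c, which encodes the Golgi kinase that phosphorylates secreted matrix proteins, read 8.58 and 8.58 in co-culture, against 7.12, 6.73 and 6.71 in MSC alone. It rose by 1.73 ± 0.20 (SE; adjusted p 0.00207 in limma), and its other probe set by 2.07. Its partner gene Fam20a, which encodes a pseudokinase that activates that kinase, fell by 2.58 ± 0.37 (SE; adjusted p 0.00329 in limma), with 6.98 and 5.82 in co-culture against 9.21, 9.01 and 8.70 in MSC alone. The genes of these partners therefore differed in opposite directions. Matn2, a matrix adaptor protein gene, fell by 2.17 ± 0.44 (SE); co-culture replicate 2 alone gave -2.84 and replicate 1 alone gave -1.51.

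All 5 measured genes of the 41 Wnt ligands, R-spondins and receptors were lower, with a median of -1.95. The other 36 are not among the named genes of the table. It was selected for probe sets that differ, so the 5 do not speak for the whole list. Besides Rspo2 the 5 measured genes were Porcn, Wls, Fzd2 and Wnt5b. Porcn, the acyltransferase that puts the lipid on Wnts, read 7.37 and 7.10 in co-culture, against 9.19, 9.23 and 9.82 in MSC alone, and fell by 2.18 ± 0.26 (SE; adjusted p 0.00209 in limma). Wls, the carrier that brings lipidated Wnts to the surface, fell by 1.95 ± 0.28 (SE; adjusted p 0.0033 in limma), and its other probe sets fell by 2.43 and 1.74. The receptor gene Fzd2 fell by 1.38 ± 0.30, and its other probe sets fell by 1.39 and 2.57. The ligand gene Wnt5b differed by -0.51 ± 0.17 (SE), but its values, 3.07 to 3.69, lay under the 10th percentile on every array and the adjusted p in limma was 0.0829 with arrays centred on their medians, the highest of 10 alternatives, which reached down to 0.00537. It was also over the threshold without MSC alone replicate 1 (adjusted p 0.0566), MSC alone replicate 2 (0.0737) or co-culture replicate 2 (0.0762). None of the 14 secreted Wnt antagonists, such as Dkk1 and Sfrp1, was analysed here.

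Downstream, 10 of 30 genes of Wnt signal transduction and targets were measured, 9 lower and 1 higher, with a median of -1.24. Genes on both sides of the pathway fell. Csnk1a1 and Gsk3b, kinases that mark β-catenin for degradation, fell by 1.31 ± 0.18 and 1.27 ± 0.27, and the β-catenin gene Ctnnb1 fell by 0.80 ± 0.18 (SE). Lef1 and Tcf7l1, DNA-binding partners of β-catenin, fell by 1.22 ± 0.27 and 1.12 ± 0.24. Tle2, a corepressor that occupies those partners when β-catenin is absent, fell by 1.99 ± 0.31, and Lrp4, a receptor for the Wnt antagonist sclerostin, fell by 1.64 ± 0.33 (SE). The value of Tle2 in co-culture replicate 2, 4.83, lay under the 10th percentile of the table. The corepressor gene Tle3 was the one above 0, at 0.60 ± 0.18 (SE; adjusted p 0.0167 in limma); its adjusted p was 0.064 without MSC alone replicate 1 and 0.0705 without co-culture replicate 1, the highest of 11 alternatives, which reached down to 0.00714. Gsk3b, Ctnnb1, Lef1, Tcf7l1 and Tle3 were named after their values were seen. The classic feedback targets Axin2 and Nkd1 were not analysed here.

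The BMP list, whose signals induce Msx2, was mixed: of 34 genes 5 were measured, 3 lower and 2 higher. Their median was -0.59, the difference of Bmpr1a itself, beside -0.61 over all genes. Without the dimmest 25% of probe sets the median of the list was -1.37. The receptor gene Bmpr2 fell by 1.37 ± 0.24 (SE), with 9.10 and 8.48 in co-culture against 10.34, 10.02 and 10.11 in MSC alone. Both co-culture values of Bmpr1a, 4.71 and 4.83, lay under the 10th percentile of the table. Bmpr1a differed by -0.59 ± 0.17 (SE), with an adjusted p in limma of 0.014. This became 0.0521 with arrays centred on their medians and 0.057 without MSC alone replicate 2, the highest of 11 alternatives, which reached down to 0.01. Fst, which encodes follistatin, a trap for activins, rose by 1.22 ± 0.29, and the activin receptor gene Acvr2a by 0.66 ± 0.18 (SE). The adjusted p of Acvr2a in limma was 0.0123, and 0.0509 without MSC alone replicate 1 and 0.0535 without co-culture replicate 2, with 0.00751 the lowest of 11 alternatives. Bmpr1a, like Wnt5b above and the stromal marker Cd44, was named after its values were seen. The BMP ligands and the SMAD and Id genes were not analysed here.

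The measured relatives of Ccn4 and Sparc were also lower. Of 14 genes of the CCN and SPARC families 4 were measured, and the 2 besides Ccn4 and Sparc were Ccn2, encoding connective tissue growth factor, and Fstl1, a SPARC-related secreted glycoprotein gene. Ccn2 read 7.97 and 7.86 in co-culture, against 9.31, 9.66 and 9.70 in MSC alone, and fell by 1.64 ± 0.20 (SE; adjusted p 0.00226 in limma). Fstl1 fell by 1.37 ± 0.20 (SE; adjusted p 0.0033 in limma), and its other probe set fell by 1.59.

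Few genes of the other fates open to MSC were measured, that is, named in the selected table. Of 17 chondrogenic genes 1 was, Col11a1, which fell by 4.85 ± 0.66 (SE), with -5.73 in its other probe set, and differed by -5.82 with co-culture replicate 1 left out and by -3.87 with replicate 2 left out. Its value in co-culture replicate 2, 4.37, lay under the 10th percentile of the table, and with such values raised to it the difference was -4.59. Of 15 adipogenic genes 2 were, Cebpd and Cebpb, early transcription factor genes that inflammation also induces, and they rose by 2.19 ± 0.19 and 1.44 ± 0.34 (SE). Sox9, Acan, Pparg, Cebpa and Fabp4 were not analysed here, so neither fate could be followed.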

How the data were processed

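The authors deposited log2 values of 5 arrays (2 of co-cultured MSC, 3 of MSC alone, grouped by sample titles), summarised per probe set with RMA, per the submitters' processing notes; the version and the rule that left 3373 probe sets are not given in the sources used here. RMA quantile-normalises arrays, compresses low values and gives no detection call. Gene names came from the platform annotation, updated through RefSeq (3013 probe sets with 1 symbol, 69 with several, 291 with none; 3010 matched). Where a gene had several probe sets, the brightest by mean value stood for it. Differences and moderated SE came from limma 3.58.1 (R 4.3.3, lmFit, eBayes, all 5 arrays, no covariates), two-sided, with Benjamini-Hochberg adjustment over all probe sets. The code was run on simulated arrays in which most probe sets did not differ. That check does not bear on the calls or SE of this selected table. The number of arrays limits the precision, and selection for separated groups favours small errors and large differences. Adjusted p values over such a selected table are descriptive and give no error rate for the whole array. Biological replicates are the labels' own; no label says they came from separate animals. The members and lists were chosen with earlier results of these data known. Named were the 6 genes, the 4 genes that differed most in each list, and the 2 nearest profiles of each gene; others are said to be named after their values were seen. Alternatives were median-centred arrays, a filter on the dimmest 25%, a floor at the 10th percentile, an intensity trend, no moderation, other probe set rules, a replicate block and leaving out each array. A further promoter motif that was planned is not reported here.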

Additional observations from a re-analysis of the deposited data

How the results depend on the processing

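Of 82 recomputed differences of the 8 probe sets, 82 kept their sign. The groups did not overlap in any probe set, so leaving out an array could not change a sign. Some differences could not move, such as the mean over probe sets of a gene with 1 probe set. Of the 82, 8 moved by over 1 SD, all on leaving out a co-culture array. That SD was the pooled SD of each probe set's own values, 1.46 for Mgp. Mgp is therefore not among the 8, though it went from -5.42 to -4.41 without MSC alone replicate 3. This was the largest shift of any of the 8 probe sets on leaving out an array. Leaving out each array gave 0.98 to 1.83 for Msx2, -5.68 to -4.37 for Rspo2, and -3.72 to -2.25 and -4.58 to -2.64 for the Ccn4 probe sets. List medians under the same omissions ran from -2.46 to -1.94 (osteoblast), -2.14 to -1.19 (mineral), -2.08 to -1.70 (Wnt ligands and receptors) and -1.97 to -1.70 (CCN and SPARC), higher Wnt transduction genes from 0 to 1 and higher BMP genes from 1 to 2. Without the dimmest 25% of probe sets the medians were -2.99 (osteoblast), -2.17 (mineral) and -1.37 (BMP), with 0 higher Wnt transduction genes and 1 higher BMP gene; also requiring 2-fold gave 0 and 1 as well. The osteoblast median was -3.60 over mean probe sets. All these medians but that of BMP include genes of interest, which were chosen on this contrast. The BMP median was -0.48 with the floor (where Wnt5b has no value) and -0.42 with centred arrays, which put CCN and SPARC at -1.71; centring shifts co-culture against MSC alone by 0.16. The labels do not say whether arrays with the same replicate number share a preparation. Replicate 1 minus replicate 2 correlated at 0.40 across probe sets between the groups. With 2 pairs this does not settle it. Used as a replicate block, the replicate numbers gave 1729 lower and 1636 higher probe sets against 1731 and 1642 without. Medians were -1.70 for Wnt ligands and for CCN and SPARC, and Mgp was at -4.41. MSC alone replicate 3 has no co-culture array of its number. The block therefore gave the same differences and medians as leaving that array out. Low values without detection calls limit the genes with values under the floor, among them Rspo2, Ccn4, Omd, Ggcx, Wnt5b, Bmpr1a and Tle2.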
